A study of Arachis hypogaea with 30 samples.

Results

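The comparison described here is the change in the peanut cultivar HY33 between 24 and 48 h in salt. It sets the 3 libraries of HY33 at 48 h in 100 mM NaCl against the 3 libraries of HY33 at 24 h in 100 mM NaCl, which are 6 of the 30 libraries of the series. HY33 is labelled tolerant to salt stress. The same step in HY9115, labelled sensitive, with 3 libraries at 48 h and 3 at 24 h, is used to show where HY33 differs. Seeds of Arachis hypogaea were germinated for 1 week and grown in hydroponic boxes, the solution was exchanged for NaCl at the 3-leaf stage, and whole plants were harvested. Both groups of each cultivar were therefore in salt, and no library of plants kept in water for 24 or 48 h was used here, so time in salt, plant age and harvest day cannot be told apart. The sampling points lie 24 h apart, so the nominal clock time is the same. The libraries hold poly(A) RNA, and each of the 10 groups of the series (each cultivar before salt, at 0 h in water, and after 3, 12, 24 and 48 h of NaCl) has 3. The titles call the 3 libraries of a group biological replicates, but nothing says whether they came from separate plants or pools, so the p-values measure the spread between these samples.

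As background, sodium chloride first lowers the water potential around the root and then accumulates in the shoot as an ion. Plants commonly answer with closed stomata, less water movement through aquaporins, slower growth, and production of protective phenolic compounds and defence proteins. Peanut is known for stilbenes such as resveratrol, which stilbene synthase makes from the same precursors that chalcone synthase turns into flavonoids. Both enzymes lie downstream of phenylalanine ammonia-lyase, the entry enzyme of phenylpropanoid metabolism, and cinnamate 4-hydroxylase, the step after it.

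Library totals were 15971679 to 16582705 counts at 48 h and 15100064 to 16680690 at 24 h in HY33, within the 13072324 to 18788677 of all 30 libraries. The 10 most abundant genes took 5.86 to 6.48% of the counts at 48 h and 3.75 to 4.08% at 24 h. Genes with at least 1 count numbered 48854 to 49452 at 48 h and 50300 to 50621 at 24 h. The labelled tissue was checked with gene lists taken from the deposited annotation. Photosynthetic genes, seed storage and oil body genes of the cotyledon, and Casparian strip genes of the root were all detected. Detection of a list does not by itself show the organ, and which organs gave the RNA was not tested. Seed storage and oil body genes took 0.105 to 0.107% of the counts at 48 h and 0.123 to 0.126% at 24 h, and 3 of 38 tested members rose. Casparian strip genes took 0.00659 to 0.0072% at 48 h and 0.00916 to 0.0105% at 24 h, with 2 of 19 members higher and 3 lower, and nodulation genes took 0.206 to 0.215% and 0.154 to 0.163%, with 4 of 58 higher (7 without HY33 24 h replicate 2). As signs of RNA quality, the rRNA-annotated models took 0.0221 to 0.0255% at 48 h and 0.0212 to 0.0265% at 24 h, and genes of plastid genome type 0.0243 to 0.0271% and 0.0245 to 0.0259%. In whole plants, fewer cells of a type and less RNA per cell cannot be told apart, and the part of organ proportions in the results below was not tested.

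Of 82955 annotated genes, 42311 reached 1 FPKM (deposited counts scaled by exon length and library total) in at least 3 of the 30 libraries and were tested with edgeR's quasi-likelihood test. Calls required a log2 change of 1 or more in either direction together with an adjusted p (Benjamini-Hochberg) below 0.05. In HY33, 5427 genes (12.8%) were called between 48 and 24 h, of which 2082 (4.92%) were higher and 3345 (7.91%) lower at 48 h. The median log2 change of all tested genes was -0.01. All 3 libraries at 48 h lay above all 3 at 24 h in FPKM for 6576 genes (15.5%) and below them for 18598 genes (44.0%). The balance of the directions depends on the scaling. TMM, the scaling used, gave factors of 0.804 to 0.846 at 48 h and 0.968 to 0.994 at 24 h, which puts log2 changes 0.26 above those of the deposited FPKM. Scaling by library totals lowered the median by 0.26 and gave 1179 genes higher and 5358 lower. Scaling to equal sums of length-normalised counts (TPM-type) lowered it by 0.34 and gave 998 higher and 6237 lower. Thus 38.4% of the calls were higher in the main scaling, 18.0% by library totals and 13.8% by TPM-type scaling. Counts of list members under the TPM-type scaling are given below where they moved by more than 1.5 times. For smaller groups within a list, such as the genes of a single enzyme, HY33 calls were counted in the main scaling only. How those counts depend on the scaling was not tested.

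In 5 chromosome stretches the step of neighbouring genes in HY33 departed from that in HY9115 as a block. The stretches were picked by that difference, whose running median over 31 tested genes passed 0.5 log2 in size. Their shift between 24 and 48 h and the calls in them follow from this choice and are no separate result. The stretches lie on chromosomes 2, 4, 12, 14 and 19 and hold 456 tested genes, of which 102 were higher and 60 lower in HY33. Levels are given relative to the mean of the HY9115 libraries. The longest, on chromosome 14 from 137099414 to 141098105 with 186 genes, had a median log2 level relative to the HY9115 mean of -0.27 at 48 h and -0.83 at 24 h in HY33, and of -1.67 at 0 h and -0.03 at 3 h. The stretch on chromosome 4 from 123394234 to 125556220 with 133 genes had -0.18 at 48 h and 0.49 at 24 h. The 3 libraries of each time lay close together, at -0.27, -0.25 and -0.29 at 48 h and -0.83, -0.84 and -0.82 at 24 h for the first. In the stretch on chromosome 19 the median step, scaled by library totals, was -0.48 in HY33 and -0.71 in HY9115, so both cultivars fell there. What sets these stretches apart was not tested. No gene named below lies in them, and without their genes 5261 calls remained, 1985 higher and 3276 lower.

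**Figure D1:**
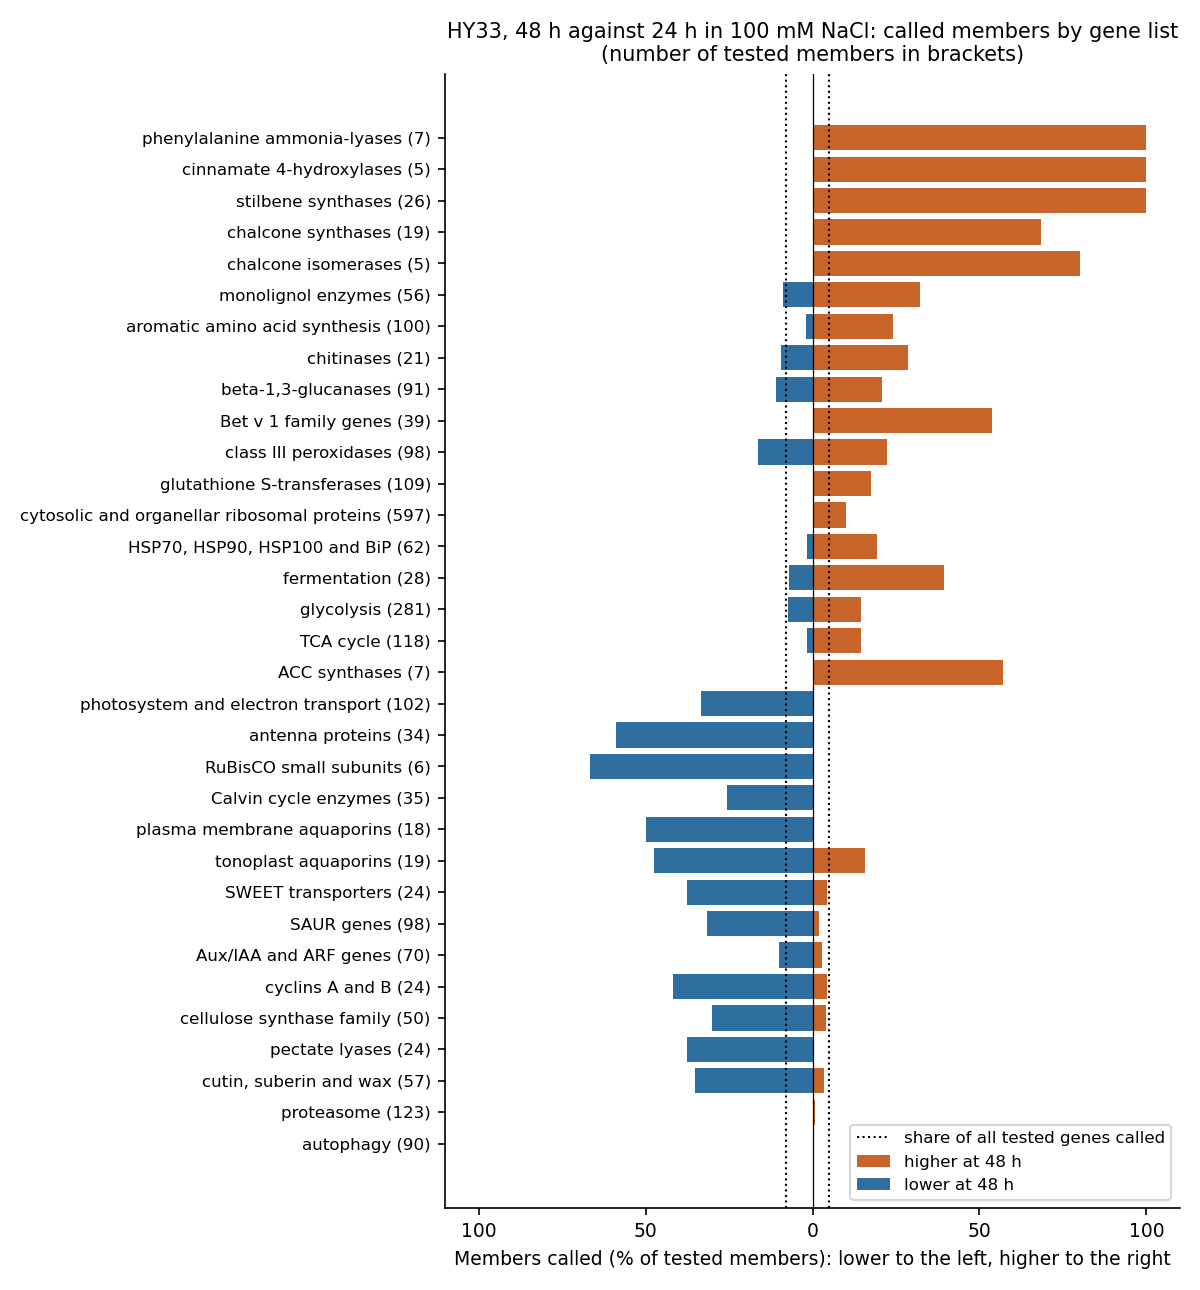
Share of the tested members of each gene list (rows, number tested in brackets) called higher at 48 h (right, orange) or lower (left, blue) than at 24 h in HY33; dotted lines mark the shares of all tested genes, 4.92% higher and 7.91% lower. All tested phenylalanine ammonia-lyases, cinnamate 4-hydroxylases and stilbene synthases were higher. The photosynthesis, aquaporin, auxin, cyclin and cell wall lists drawn lie mostly to the left. Core histones (2 of 64 higher, none lower) and DNA replication genes (16 of 109 higher, 2 lower) are not drawn.

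The entry of phenylpropanoid metabolism rose as a block. All 7 tested phenylalanine ammonia-lyase genes, of 14 annotated, and all 5 cinnamate 4-hydroxylase genes were higher at 48 h, with median log2 changes of 1.4 and 1.9. The phenylalanine ammonia-lyase Ah07g003900 had 47.2, 47.7 and 46.4 FPKM at 48 h, against 18.8, 19.2 and 17.5 FPKM at 24 h (log2 change 1.60, SE 0.13, adjusted p 4.4e-12). Ah09g449100, a second such gene, had 65.1, 59.1 and 58.2 FPKM at 48 h, against 25, 27.4 and 23.5 FPKM at 24 h. The groups did not overlap for either gene, but their courses differed. In HY33, Ah07g003900 averaged 1.16, 5.59, 16.3, 18.5 and 47.1 FPKM at 0, 3, 12, 24 and 48 h. Over the same times Ah09g449100 averaged 45.5, 37, 29.5, 25.3 and 60.8 FPKM, so that its level at 24 h was below that in water. The cinnamate 4-hydroxylase Ah11g028500 had 26, 24.7 and 23 FPKM at 48 h, against 4.69, 4.67 and 4.48 FPKM at 24 h, a 6.35-fold increase. Ah19g527800, the more abundant gene of that enzyme, had 139.9, 155 and 117 FPKM at 48 h, against 44.1, 46 and 41.4 FPKM at 24 h.

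In aromatic amino acid synthesis, the route that makes phenylalanine, 24 of 100 tested genes rose and 2 fell, and 11 rose and 3 fell under TPM-type scaling. DAHP synthase, the enzyme that opens the shikimate pathway, had 4 of 6 genes higher. Its gene Ah20g145000 had 129, 123 and 119 FPKM at 48 h, against 31.6, 32.4 and 28.4 FPKM at 24 h (log2 change 2.26, SE 0.11, adjusted p 1.9e-16). Of 19 tested 4-coumarate CoA ligases, which activate the phenolic acids for all later branches, 3 rose, and under TPM-type scaling none rose and 2 fell.

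All 26 tested stilbene synthase genes, of 29 annotated, were higher at 48 h, with log2 changes of 1.00 to 6.27 and a median of 1.37. The lowest mean among these genes was 0 FPKM at 24 h and 0.447 FPKM at 48 h, so the upper end of that range may rest on few counts. By TPM-type scaling 14 of the 26 genes passed the minimum change, and none was lower. Together they took 0.477 to 0.535% of all counts at 48 h and 0.232 to 0.271% at 24 h. In the coordinates of the deposited table, whose genome build is not given in the sources used here, 18 of the 29 lie on chromosome 14 between bases 12339400 and 13353997 and 7 on chromosome 4 between bases 10843367 and 11464890. Such neighbouring copies are alike in sequence and may share reads, so the level of a single copy is uncertain. The chromosome 14 gene Ah14g109700 (12661610 to 12668048) had 107, 97.4 and 94.9 FPKM at 48 h, against 35.4, 37.4 and 48.1 FPKM at 24 h. Its neighbour Ah14g109900 had 56.9, 46.7 and 44 FPKM at 48 h, against 15.5, 17.1 and 18.1 FPKM at 24 h. For both, the libraries of the groups were well apart. The course of Ah14g109700 in HY33 had an early peak: it averaged 1.61, 48.6, 30, 40.3 and 99.8 FPKM at 0, 3, 12, 24 and 48 h.

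Chalcone synthases, the entry enzymes of flavonoid synthesis, rose in 13 of 19 tested genes and fell in none, and TPM-type scaling left 5 higher and 1 lower. The list median of 1.18 was close to that of the stilbene synthases. Ah14g110800, a member above that median within the stilbene synthase array on chromosome 14, had 71.6, 79.8 and 64 FPKM at 48 h, against 21.9, 26.9 and 20.5 FPKM at 24 h. It carries the same KEGG orthology as the stilbene synthases Ah14g109700 and Ah14g109900, so that assignment does not separate the 2 enzymes. The caution on reads shared between neighbouring copies applies to it as well. A pair of genes of the same list stood far above the others. Unlike Ah14g110800, the pair has no KEGG orthology, so its place on the list rests on other terms of the deposited annotation. Ah08g069200 on chromosome 8 had 324, 302 and 252 FPKM at 48 h, against 5.76, 7.74 and 6.51 FPKM at 24 h, a 52.4-fold increase (log2 change 5.71, SE 0.22, adjusted p 5.8e-19). On chromosome 17, Ah17g434000 had 68.4, 63.2 and 48.7 FPKM at 48 h, against 1.22, 1.71 and 1.05 FPKM at 24 h (log2 change 5.75, SE 0.31). Both were at or next to 0 in water, where Ah08g069200 averaged 0.0167 FPKM and Ah17g434000 0 FPKM. Chalcone isomerases, which close the flavonoid ring, rose in 4 of 5 genes, among them Ah09g417800 with 127, 127 and 108 FPKM at 48 h, against 42.8, 45.5 and 42 FPKM at 24 h. Further along the branches the picture was mixed: 3 of 18 later flavonoid enzymes rose and 4 fell (1 and 4 under TPM-type scaling), and 4 of 27 isoflavonoid enzymes rose and 3 fell (1 and 4).

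Monolignol enzymes, which make the precursors of lignin, rose in 18 of 56 tested genes and fell in 5. Caffeic acid O-methyltransferase Ah20g521200 had 272, 264 and 245 FPKM at 48 h, against 63.7, 65.4 and 61.3 FPKM at 24 h, a 4.89-fold increase. Caffeoyl-CoA O-methyltransferases went both ways, with 5 of 9 higher and 2 lower. Ah10g192700 had 279.8, 260.0 and 256 FPKM at 48 h, against 89.1, 103 and 93.8 FPKM at 24 h, whereas Ah11g128300 had 5.69, 6.3 and 5.58 FPKM at 48 h, against 18.6, 21.3 and 22.4 FPKM at 24 h. The abundant member thus rose and the scarcer member fell.

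**Figure D2:**
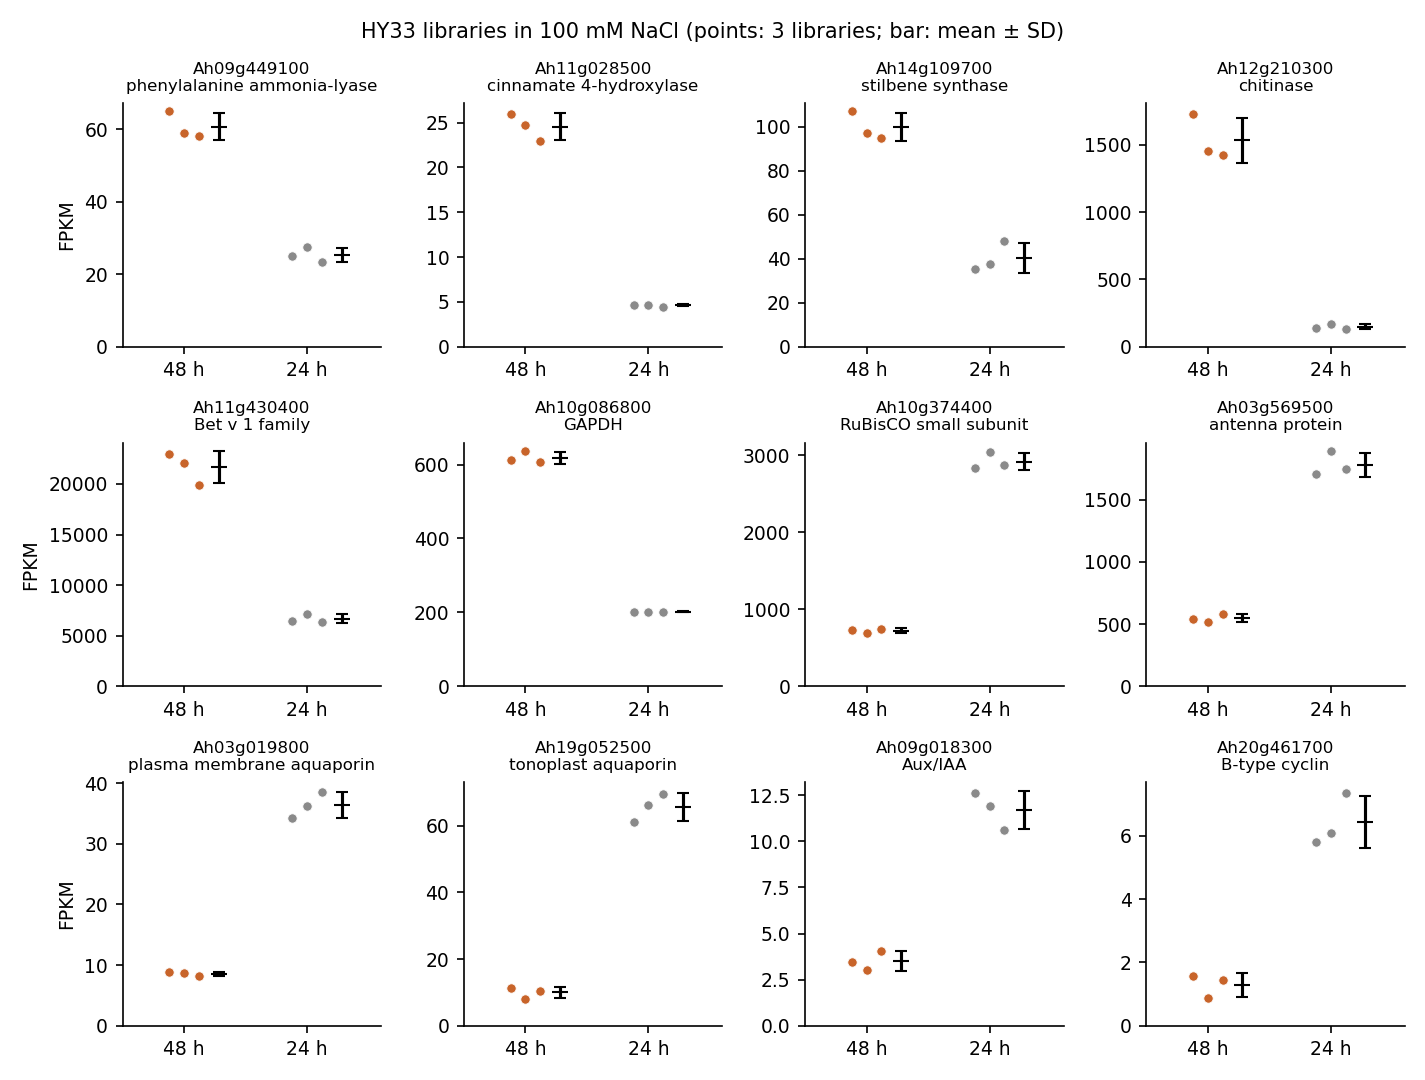
FPKM of 12 genes in the 3 HY33 libraries at 48 h (orange) and the 3 at 24 h (grey), each with its mean ± SD beside the points; every vertical axis starts at 0. In each panel the 3 libraries at 48 h lie all above or all below the 3 at 24 h, for example 1425 to 1728 FPKM against 135 to 169 FPKM for the chitinase Ah12g210300.

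Chitinases and glucanases, defence enzymes, took a larger share of the counts at 48 h. Chitinases, which cut the chitin of fungal walls, took 0.377 to 0.448% of counts at 48 h and 0.0899 to 0.104% at 24 h, and 6 of 21 tested genes rose and 2 fell (4 and 4 under TPM-type scaling). The chitinase Ah12g210300 had 1728, 1453 and 1425 FPKM at 48 h, against 140.4, 169 and 135 FPKM at 24 h, a 12.4-fold increase (log2 change 3.63, SE 0.20, adjusted p 4.8e-15). It averaged 13.6 FPKM in water, 24 FPKM at 3 h and 113 FPKM at 12 h. Ah18g030400 had 909, 794 and 752 FPKM at 48 h, against 248, 264 and 219.7 FPKM at 24 h, and Ah08g147800 had 752, 679 and 657 FPKM, against 190.3, 199 and 166 FPKM. Beta-1,3-glucanases, which cut callose and fungal glucans, took 0.883 to 0.974% of counts at 48 h and 0.278 to 0.299% at 24 h. Of 91 tested, 19 rose and 10 fell (15 and 22 under TPM-type scaling). The median log2 change was -0.2, with 39 genes above 0 and 52 below, so the larger share came from a part of the members. Ah16g058700 had 724, 662 and 643 FPKM at 48 h, against 79, 82.1 and 75.8 FPKM at 24 h.

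Genes of the Bet v 1 family, to which the PR-10 defence proteins belong, included the most abundant gene of all 3 libraries at 48 h, Ah11g430400. Leaving out those assigned to the PYL receptors by KEGG orthology, 21 of 39 tested genes rose and none fell (14 and 3 under TPM-type scaling). Their share of all counts was 3.71 to 4.28% at 48 h and 1.77 to 2.0% at 24 h. It had 22971, 22060.2 and 19945 FPKM at 48 h, against 6492, 7175 and 6342 FPKM at 24 h, a 3.88-fold increase. Ah04g119100 was about as abundant, with 22556, 20059 and 19557 FPKM at 48 h and 11578, 13167 and 11464 FPKM at 24 h. Its log2 change of 1.04 (SE 0.15, adjusted p 9.3e-07) lay at the minimum, and it was no longer called by library totals (0.78), by TPM-type scaling (0.69), by limma (0.78), without HY33 48 h replicate 1 (0.96), or without HY33 24 h replicate 1 or 3 (1.0 each, rounded). A scarcer member, Ah11g442900, had 963, 858 and 818 FPKM at 48 h, against 192, 196 and 148 FPKM at 24 h.

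Class III peroxidases, which crosslink wall phenolics and monolignols, split. Of 98 tested genes 22 rose and 16 fell, or 17 and 24 under TPM-type scaling. Ah11g034000 had 20.8, 12.3 and 15.9 FPKM at 48 h, against 0.61, 0.74 and 0.52 FPKM at 24 h, a 30.9-fold increase, while the abundant Ah11g403300 had 222, 224 and 237 FPKM at 48 h, against 535, 573 and 548 FPKM at 24 h. The fall of Ah11g403300 (log2 change -1.03, SE 0.08) was just past the minimum, and it was -0.99 without HY33 24 h replicate 2. Glutathione S-transferases, which conjugate reactive compounds to glutathione, rose in 19 of 109 tested genes and fell in none (7 and 7 under TPM-type scaling). The most abundant, Ah20g111800, had 8861, 8395 and 7968 FPKM at 48 h, against 3634, 3718 and 3649 FPKM at 24 h. In the ascorbate cycle, which removes hydrogen peroxide, 0 of 70 rose and 4 fell with edgeR, and 0 rose with DESeq2. WRKY factors, transcription factors of defence, showed 0 higher and 4 lower of 27 in edgeR and in DESeq2.

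The counts of genes called in carbon breakdown and protein synthesis depended on the scaling. Ribosomal protein genes had a median log2 change of 0.67, and their share of counts was 3.48 to 3.63% at 48 h and 2.53 to 2.62% at 24 h. Of 597 tested, 60 rose and none fell, against 6 and 12 under TPM-type scaling. Ah20g284300 had 82.5, 77.6 and 76.2 FPKM at 48 h, against 36.1, 38.6 and 40.3 FPKM at 24 h, and was not called under TPM-type scaling (0.95). TCA cycle genes rose in 17 of 118 and fell in 2 (2 and 10 by TPM-type scaling), oxidative phosphorylation genes in 20 of 248 with 2 lower (6 and 10), and glycolysis genes in 41 of 281 with 21 lower (18 and 42).

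Enolases rose in 6 of 9 tested genes. The enolase Ah05g268800 had 63.9, 69.7 and 55.8 FPKM at 48 h, against 12.8, 13.4 and 12.5 FPKM at 24 h. Glyceraldehyde-3-phosphate dehydrogenase Ah10g086800 had 612, 637 and 606 FPKM at 48 h, against 202, 199.8 and 202 FPKM at 24 h (log2 change 1.88, SE 0.13, adjusted p 1.7e-13). Of the 7 tested genes of that enzyme 5 rose and 1 fell. Ah09g111000, the acetyltransferase subunit of pyruvate dehydrogenase that feeds the TCA cycle, had 78.9, 75.1 and 74 FPKM at 48 h, against 33, 33.9 and 31.1 FPKM at 24 h. Fermentation genes, which regenerate NAD+ from pyruvate, rose in 11 of 28 and fell in 2 (7 and 6 under TPM-type scaling): pyruvate decarboxylases in 6 of 12 and alcohol dehydrogenases in 5 of 12. Alcohol dehydrogenase Ah17g425400 had 439, 451 and 364 FPKM at 48 h, against 179, 178 and 171 FPKM at 24 h. Ah15g385100, a formate dehydrogenase, had 490.1, 489 and 447 FPKM at 48 h, against 108, 108 and 107 FPKM at 24 h, a 5.29-fold increase.

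Chaperones rose more often than the 4.92% of all genes called higher. Of 62 genes for HSP70, HSP90, HSP100 and BiP, 12 rose and 1 fell (3 and 5 under TPM-type scaling), and BiP, the chaperone of the endoplasmic reticulum, accounted for 4 of them in 6 tested genes. Of 16 tested cytosolic HSP90 genes, 2 rose and 1 fell, with a median log2 change of -0.09. Among those that rose, Ah13g409900 had 84.7, 104 and 96.6 FPKM at 48 h, against 40.5, 40 and 40.8 FPKM at 24 h. Small heat shock proteins rose in 4 of 29 genes (3, with 1 lower, under TPM-type scaling). The proteasome, with 1 of 123 genes higher (and 3 lower under TPM-type scaling), and autophagy, with 0 of 90 called by edgeR and by DESeq2 (1 lower under TPM-type scaling), stayed below the 12.8% of all genes called. Cysteine peptidases, in contrast, held both directions: 2 of 30 rose and 10 fell. The members that rose, Ah08g231500 and Ah18g126700, are annotated with leaf senescence and programmed cell death, but Ah03g017200 and Ah13g036600, on the leaf senescence list as well, fell. That list had 10 of 185 tested genes higher and 22 lower. Ah08g231500 had 203, 177 and 187 FPKM at 48 h, against 24, 30.8 and 20.9 FPKM at 24 h, and Ah18g126700 had 278, 225 and 253 FPKM, against 61, 64.5 and 56.5 FPKM. Ah08g014000, another cysteine peptidase, had 4.31, 5.03 and 5.33 FPKM at 48 h, against 19.9, 25.2 and 22.6 FPKM at 24 h.

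In nitrogen assimilation, members of 1 enzyme moved in opposite directions. Asparagine synthases, which make the main nitrogen transport compound of legumes, rose in 2 of 11 tested genes and fell in 2. Ah01g053200 had 237, 238 and 243 FPKM at 48 h, against 130.2, 128 and 132 FPKM at 24 h, and was not called by library totals (0.88), TPM-type scaling (0.80) or limma (0.88). Ah01g056100, also on chromosome 1, had 27.2, 29.3 and 27.3 FPKM at 48 h, against 104, 109 and 98.8 FPKM at 24 h (log2 change -1.64, SE 0.09). Glutamine synthetases, which fix ammonium, rose in 2 of 7 genes and fell in 3. Ah05g371500 had 388, 365 and 377 FPKM at 48 h, against 183, 199 and 181 FPKM at 24 h, and was not called under TPM-type scaling (0.92), whereas Ah14g050000 had 11.4, 9.32 and 11.1 FPKM, against 38.9, 38.2 and 34.9 FPKM.

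Ethylene synthesis rose at its committed step. ACC synthases, which make the ethylene precursor, rose in 4 of 7 tested genes and fell in none, and Ah12g023800 had 7.2, 7.53 and 7.39 FPKM at 48 h, against 1.32, 1.13 and 1.22 FPKM at 24 h. ACC oxidases, the last step, rose in 4 of 14 and fell in 3. Ah05g318500 had 52.6, 58.8 and 42.8 FPKM at 48 h, against 6.58, 6.83 and 7.1 FPKM at 24 h, an 8.98-fold increase, and averaged 11.7, 0.61 and 4.52 FPKM at 0, 3 and 12 h. Its homologue Ah15g475300 had 48.2, 54.3 and 38 FPKM at 48 h, against 9.58, 9.23 and 9.84 FPKM at 24 h. In the other direction Ah17g438600 had 2.07, 2.09 and 2.52 FPKM at 48 h, against 7.4, 6.87 and 6.27 FPKM at 24 h. Of 38 tested genes of ethylene signalling, 1 was higher (2.63%) and none lower, or 1 higher and 2 lower under TPM-type scaling. Of all tested genes, 4.92% were higher and 7.91% lower.

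Of the gibberellin enzymes, 3-oxidases, which make the active hormone, rose in 2 of 4 tested genes and fell in 2, and 20-oxidases, the step before, fell in 3 of 4. The 3-oxidase Ah18g420900 had 11.3, 12.8 and 11.1 FPKM at 48 h, against 1.32, 0.99 and 1.19 FPKM at 24 h, an 11.9-fold increase. The 3-oxidase Ah08g313800 had 26.7, 21.5 and 22.3 FPKM, against 4.21, 3.61 and 3.58 FPKM. The 20-oxidase Ah15g526500 had 1.99, 2.05 and 2.38 FPKM at 48 h, against 9.53, 7.44 and 10.2 FPKM at 24 h. Among lipoxygenases, which oxidise fatty acids into oxylipins, the 9-type fell in 9 of 25 tested genes and rose in none, and Ah19g151600 had 22, 22.8 and 24.8 FPKM at 48 h, against 91.5, 94.1 and 90.2 FPKM at 24 h. The 13-type, which opens jasmonate synthesis, rose in 1 of 15 and fell in 3 (0 and 4 under TPM-type scaling), among them Ah13g069600 with 4.09, 4.23 and 5.12 FPKM, against 13.1, 12.1 and 11.3 FPKM. Later jasmonate enzymes rose in 7 of 38 and fell in 1, but in 4 without HY33 48 h replicate 3, in 3 without HY33 24 h replicate 3 and in 3 (with 6 lower) under TPM-type scaling. The oxophytodienoate reductase Ah15g153900, of that group, had 35.3, 35.1 and 36.5 FPKM at 48 h, against 13.2, 10.9 and 12 FPKM at 24 h.

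Abscisic acid receptors of the PYL family rose in 6 of 20 tested genes and fell in 1 (3 and 2 under TPM-type scaling). The family's share of counts, in contrast, was 0.028 to 0.0285% at 48 h and 0.0328 to 0.0349% at 24 h. Against water, 9 of the 20 were lower at 48 h and none higher, where 8491 of all 42311 tested genes were lower. Ah12g349300 had 7.88, 9.87 and 10 FPKM at 48 h, against 4.12, 3.66 and 3.42 FPKM at 24 h (log2 change 1.56, SE 0.13, adjusted p 6.7e-12). It averaged 21.9 FPKM in water, so its 48 h mean of 9.25 FPKM was still below the water level. Downstream phosphatases, kinases and ABF factors had 0 of 56 higher and 2 lower, and abscisic acid metabolism 0 of 18 higher and 2 lower. TPM-type scaling gave 4 and 6 lower, and no member of either list was higher by DESeq2.

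**Figure D3:**
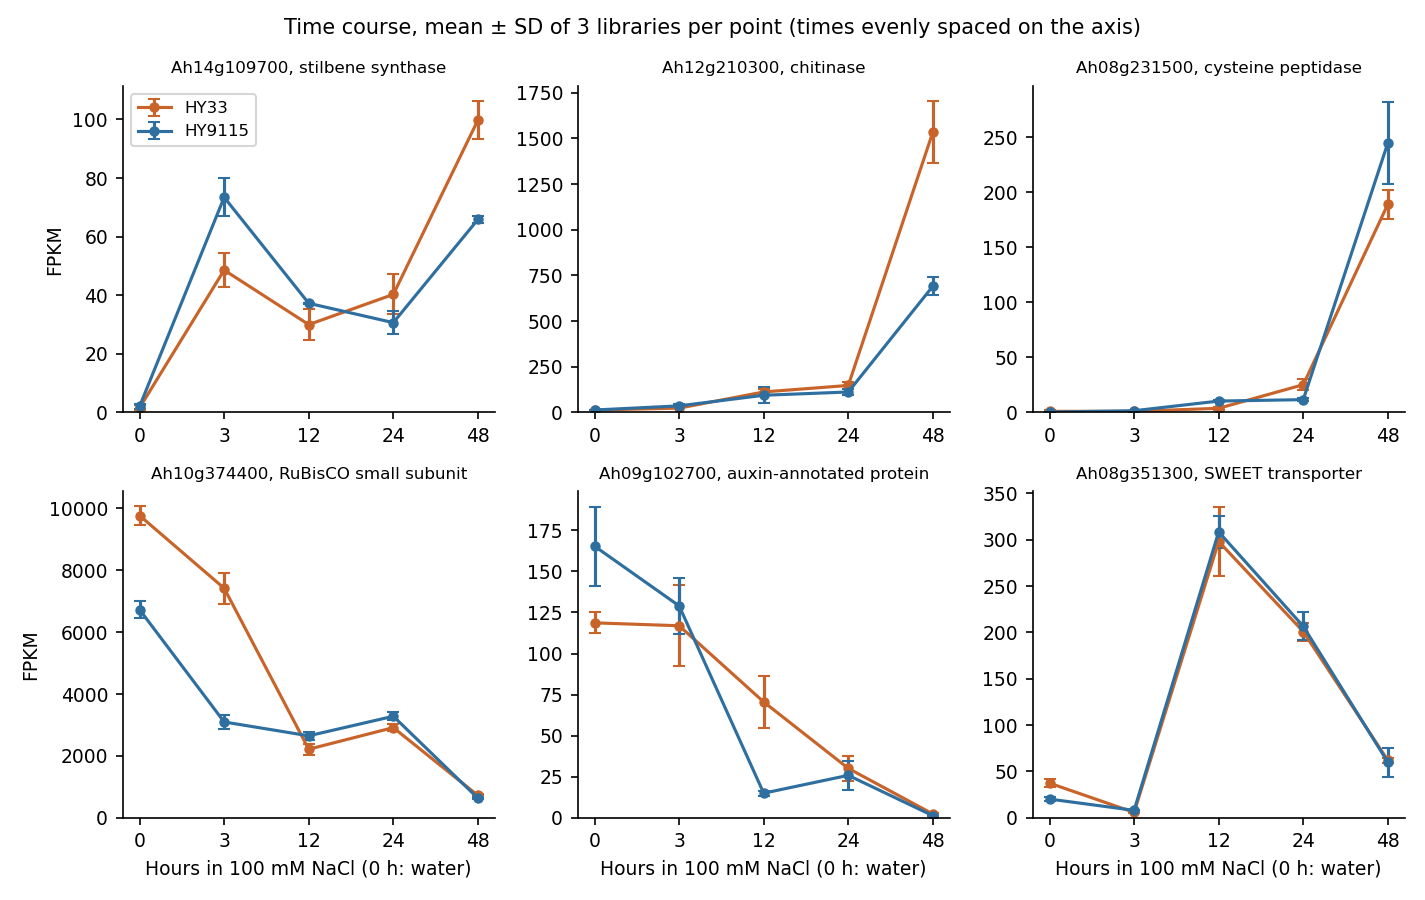
Mean FPKM ± SD of 3 libraries per point for 6 genes in HY33 (orange) and HY9115 (blue) before salt (0 h, water) and after 3, 12, 24 and 48 h of 100 mM NaCl; the times are evenly spaced on the horizontal axis. The stilbene synthase Ah14g109700 had an early and a late maximum, the chitinase Ah12g210300 and the cysteine peptidase Ah08g231500 were highest at 48 h, and the SWEET gene Ah08g351300 was highest at 12 h.

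Photosynthesis genes fell. Genes of the photosystems and their electron transport fell in 34 of 102 tested, antenna proteins, which bind the chlorophyll that gathers light, in 20 of 34, and genes for the small subunit of RuBisCO, the carbon-fixing enzyme, in 4 of 6, with none higher in any of the 3 lists. TPM-type scaling raised the first count to 60. The share of counts was 0.194 to 0.204% at 48 h and 0.686 to 0.739% at 24 h for the RuBisCO small subunits. It was 0.203 to 0.223% at 48 h and 0.552 to 0.591% at 24 h for the antenna proteins. The small subunit gene Ah10g374400 had 734, 685 and 747 FPKM at 48 h, against 2833, 3043 and 2869 FPKM at 24 h (log2 change -1.76, SE 0.08, adjusted p 3.2e-17). Its course in HY33 was 9767, 7418, 2217, 2915 and 722 FPKM at 0, 3, 12, 24 and 48 h. Ah20g471800, another small subunit gene, had 1021, 983 and 1022 FPKM at 48 h, against 3141, 3271 and 3105 FPKM at 24 h. The antenna gene Ah03g569500 had 543, 518 and 583 FPKM at 48 h, against 1709, 1889.7 and 1746 FPKM at 24 h. Its mean of 1781 FPKM at 24 h was above the 899.9 FPKM at 12 h.

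Calvin cycle enzymes fell in 9 of 35 tested genes, with none higher, and the fructose bisphosphatase Ah14g268800 had 7.28, 5.8 and 6.77 FPKM at 48 h, against 25.4, 24.7 and 24.4 FPKM at 24 h. Ferredoxin Ah14g039400 of the photosystem and electron transport list, which carries electrons from photosystem I, had 6.49, 6.83 and 8.33 FPKM, against 26.1, 31.2 and 31.3 FPKM. Chlorophyll synthesis fell in 5 of 61 genes, or 8.2%, near the 7.91% of all genes, and rose in 2. The count lower was 3 without HY33 48 h replicate 2 and 13 under TPM-type scaling. Protochlorophyllide reductase, its light-dependent step, fell in 2 of 4 genes, among them Ah13g240000 with 16.6, 16.4 and 17.2 FPKM at 48 h, against 63.6, 62.8 and 63.1 FPKM at 24 h.

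Many water channel genes fell. Plasma membrane aquaporins fell in 9 of 18 tested genes, with none higher. In FPKM all 18 had their libraries at 48 h below those at 24 h, as did 44.0% of all tested genes. The share of counts of these aquaporins was 0.326 to 0.345% at 48 h and 0.545 to 0.568% at 24 h. Ah03g019800 had 8.87, 8.62 and 8.24 FPKM at 48 h, against 34.2, 36.3 and 38.6 FPKM at 24 h (log2 change -1.83, SE 0.11). The more abundant Ah09g447500 had 22.3, 23.1 and 26.8 FPKM, against 86.3, 89.8 and 87 FPKM. Tonoplast aquaporins, the channels of the vacuole, fell in 9 of 19 genes and rose in 3 (11 and 1 under TPM-type scaling), while their share of counts was 0.139 to 0.149% at 48 h and 0.133 to 0.136% at 24 h. Among them Ah19g052500 had 11.4, 7.99 and 10.5 FPKM at 48 h, against 61.1, 66.3 and 69.6 FPKM at 24 h. Ah18g017900 had 480.5, 456 and 460.1 FPKM at 48 h, against 245, 255 and 255 FPKM at 24 h. It was not called by library totals (0.89), TPM-type scaling (0.80) or limma (0.89). Potassium and sodium transport genes rose in 8 of 92 tested and fell in 6 (5 and 15 under TPM-type scaling), and plasma membrane proton pumps, which energise that transport, rose in 2 of 27 (0 and 2 under TPM-type scaling).

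SWEET transporters, which let sugars out of cells, fell in 9 of 24 tested genes and rose in 1. Ah08g351300 had 58.9, 63.3 and 63.9 FPKM at 48 h, against 205, 208 and 189.9 FPKM at 24 h, and its 48 h level was still above the 37.4 FPKM measured in water. Ah03g389000 had 6.67, 7.09 and 6.42 FPKM at 48 h, against 39.6, 31.6 and 33.2 FPKM at 24 h. The 1 that rose, Ah05g371000, had 26, 24.7 and 27.2 FPKM at 48 h, against 10.1, 10.1 and 10.2 FPKM at 24 h.

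Of the growth lists, some fell and others did not. SAUR genes, early auxin-induced genes of cell expansion, fell in 31 of 98 tested and rose in 2 (51 and 1 under TPM-type scaling). Aux/IAA and ARF genes, the repressors and factors of auxin response, fell in 7 of 70 and rose in 2, close to the share of all genes, but in 27 under TPM-type scaling. Auxin transport genes fell in 5 of 24 (9 under TPM-type scaling), and in 3 without HY33 48 h replicate 3. The Aux/IAA gene Ah09g018300 had 3.46, 3.02 and 4.06 FPKM at 48 h, against 12.6, 11.9 and 10.6 FPKM at 24 h. A neighbouring pair on chromosome 9 annotated with auxin signalling and manganese binding fell further. Ah09g102700 had 2, 2.27 and 2.73 FPKM, against 26, 25.3 and 39 FPKM, and Ah09g102900 had 1.41, 0.66 and 1.01 FPKM, against 12.3, 18.6 and 14.7 FPKM. In water these averaged 119 and 62.1 FPKM.

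All 8 tested B-type cyclins, which drive entry into mitosis, fell, with a median log2 change of -2.04, while A-type cyclins rose in 1 of 16 genes and fell in 2. Ah20g461700, a B-type cyclin, had 1.56, 0.87 and 1.44 FPKM at 48 h, against 5.82, 6.11 and 7.37 FPKM at 24 h, and averaged 27.3 FPKM in water. Core histones, made during DNA synthesis, did not follow: 2 of 64 rose and none fell (1 and 2 under TPM-type scaling). Genes of DNA replication rose in 16 of 109 tested and fell in 2 (3 and 7 under TPM-type scaling). Several cell wall lists fell more often than all genes: the cellulose synthase family in 15 of 50 with 2 higher (24 and 1 under TPM-type scaling), xyloglucan endotransglucosylases, which loosen walls, in 9 of 41 with 1 higher (13 and 0), and pectate lyases, which cut pectin, in 9 of 24 with none higher. The other pectin lists went both ways: pectinesterases rose in 11 of 59 and fell in 9 (9 and 17 under TPM-type scaling), and polygalacturonases rose in 6 of 36 and fell in 5. The cellulose synthase Ah04g142000 had 3.03, 1.76 and 2.07 FPKM at 48 h, against 9.1, 7.13 and 8.59 FPKM at 24 h. The xyloglucan enzyme Ah03g147700 had 7.09, 6.31 and 8.06 FPKM, against 34.7, 33.2 and 36.3 FPKM. Cutin, suberin and wax genes, which make the water-tight surface layers, fell in 20 of 57 and rose in 2 (27 and 1 under TPM-type scaling). Ah18g379700, a peroxygenase of the cutin pathway, had 2.38, 2.71 and 3.43 FPKM, against 8.98, 10.6 and 10.6 FPKM. The lipid transfer gene Ah02g315000 had 259, 240.2 and 238 FPKM, against 615, 719 and 656 FPKM.

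Some regulators turned over within the step. MYB factors, a large family of transcription factors, rose in 27 of 192 tested genes and fell in 31 (14 and 58 under TPM-type scaling). Ah09g308700 had 0.09, 0.41 and 0.5 FPKM at 48 h, against 8.79, 8.33 and 7.22 FPKM at 24 h, a 20.1-fold decrease, and Ah19g390900 had 0.2, 0.45 and 0.25 FPKM, against 5.25, 5.38 and 5.66 FPKM. Ah09g308700 was also at 0.283 FPKM in water and at 5.2 and 4.94 FPKM at 3 and 12 h, so its 48 h level was close to that in water. Clock genes had 0 of 32 higher and 1 lower, and 0 higher and 12 lower by TPM-type scaling. The 1 lower, Ah02g048300, annotated with circadian rhythm, had 12.2, 11.7 and 11.9 FPKM at 48 h, against 30.3, 26.8 and 31.4 FPKM at 24 h.

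The same step in HY9115 called 7707 genes (18.2%), 2348 (5.55%) higher and 5359 (12.7%) lower, or 1350 and 7496 under TPM-type scaling. Of the 2082 genes higher in HY33, 942 were also higher in HY9115, which is 45.2% of the HY33 calls and 40.1% of the HY9115 calls. Of the 3345 lower in HY33, 2256 were lower in HY9115, or 67.4% and 42.1%. In opposite directions were 39 genes higher in HY33 and lower in HY9115, and 31 lower in HY33 and higher in HY9115. The difference of the steps itself, HY33 minus HY9115, was called in 3024 genes (7.15%), 2040 (4.82%) higher and 984 (2.33%) lower. Limma on log2(FPKM + 1) gave 734 higher and 708 lower, so the excess of higher calls depends on the method. Of the 2040, 983 were lower in HY9115 and not called in HY33, 353 were higher in HY33 and not called in HY9115, and 319 were lower in both, further in HY9115. Of the 984, 381 were higher in HY9115 and not called in HY33, and 258 were lower in HY33 and not called in HY9115. In HY9115, stilbene synthases were higher in 23 of 26 genes, antenna proteins were lower in 25 of 34, and the difference of the steps was called in none of either list by edgeR. Phenylalanine ammonia-lyases were higher in 2 of 7 genes in HY9115, with no difference called. The difference was called higher in 2 of 5 cinnamate 4-hydroxylases, in 4 of 19 chalcone synthases with 1 lower, and in 5 of 27 isoflavonoid enzymes with 2 lower.

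**Figure D4:**
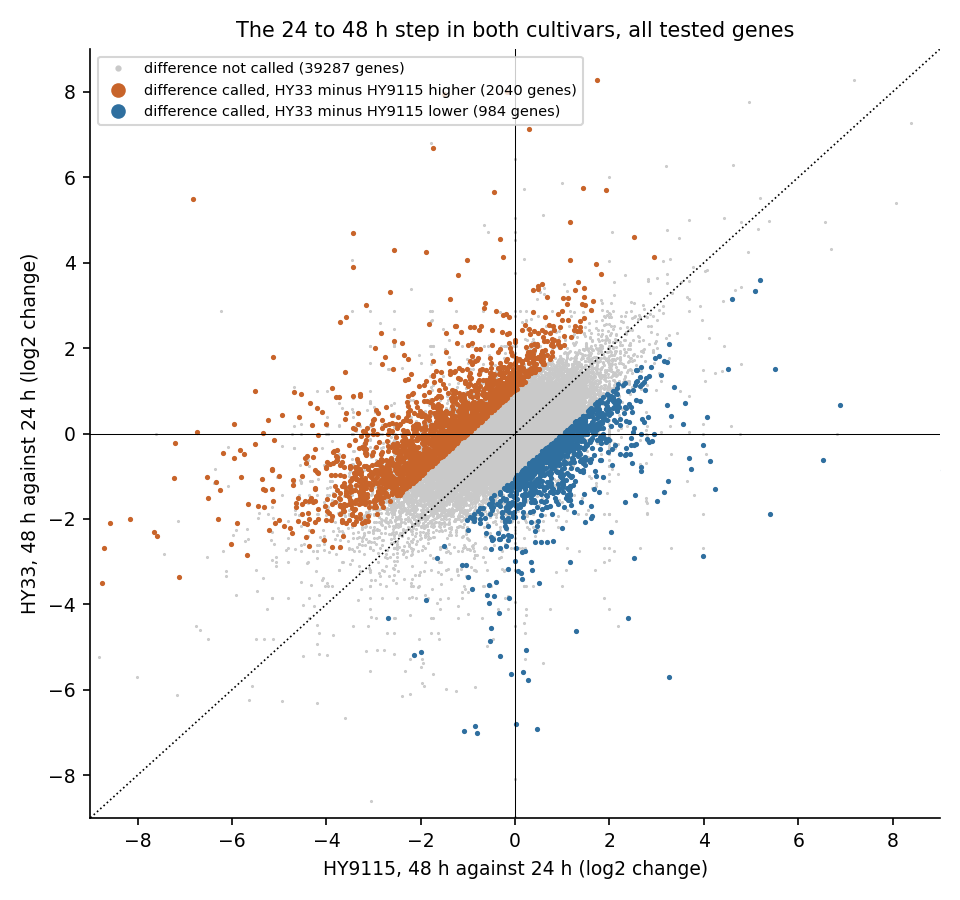
Log2 change from 24 to 48 h of each tested gene in HY33 (vertical) against HY9115 (horizontal), with the 2040 genes whose difference of the steps was called higher in orange, the 984 called lower in blue and the other genes in grey; the dotted line marks equal change and 2 genes lie outside the axes. Most orange points lie left of 0, where HY9115 was lower at 48 h.

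Genes of DNA replication differed between the cultivars. In the difference of the steps, 24 of 109 tested genes were higher and 2 lower, and among MCM2 to MCM7, the 6 subunits of the replicative helicase, 12 of 14 genes were higher and none lower, with a median log2 difference of 1.45. That number was 12 under every scaling and with each library of the 4 groups left out in turn. MCM genes were chosen out of the replication list after their values were seen. In HY33, 3 of the 14 rose and none fell. In HY9115 none rose and 3 fell. The MCM2 gene Ah11g437500 had 6.4, 6.47 and 5.87 FPKM at 48 h, against 4.19, 3.47 and 4.04 FPKM at 24 h in HY33. The HY9115 libraries had 3.54, 3.15 and 4.39 FPKM at 48 h, against 4.65, 6.07 and 5.29 FPKM at 24 h (difference of log2 changes 1.28, SE 0.18, adjusted p 1.7e-06). Neither step of this gene alone passed the minimum change.

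Several wall and surface lists were higher in the difference of the steps, and xyloglucan endotransglucosylases were not, with 1 of 41 higher and 4 lower. Of the cutin, suberin and wax genes, 38 of 57 fell in HY9115, and the difference was called higher in 13 and lower in 1. Pectinesterases, which modify pectin, were called higher in 10 of 59 and pectate lyases in 8 of 24, with none lower in either list, and the second count was 5 without HY9115 48 h replicate 2. The pectate lyase Ah01g025500 had 1.57, 1.52 and 1.83 FPKM at 48 h, against 4.93, 5.29 and 5.81 FPKM at 24 h in HY33. In HY9115 it had 0.35, 0.28 and 0.17 FPKM at 48 h, against 2.96, 4.4 and 3.85 FPKM at 24 h (difference 2.14, SE 0.31, adjusted p 9.5e-07). Limma on log2(FPKM + 1), which compresses the change of scarce genes, gave 0.63 for this difference, under the minimum. Of 25 tested 9-lipoxygenases, 6 were called higher in the difference and 1 lower. Ah09g111400 had 19.3, 18.9 and 18.8 FPKM at 48 h, against 55.8, 58.4 and 55.6 FPKM at 24 h in HY33. In HY9115 it had 4.73, 7.98 and 5.09 FPKM at 48 h, against 81.6, 91.9 and 105 FPKM at 24 h (difference 2.45, SE 0.18, adjusted p 7.2e-12).

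**Figure D5:**
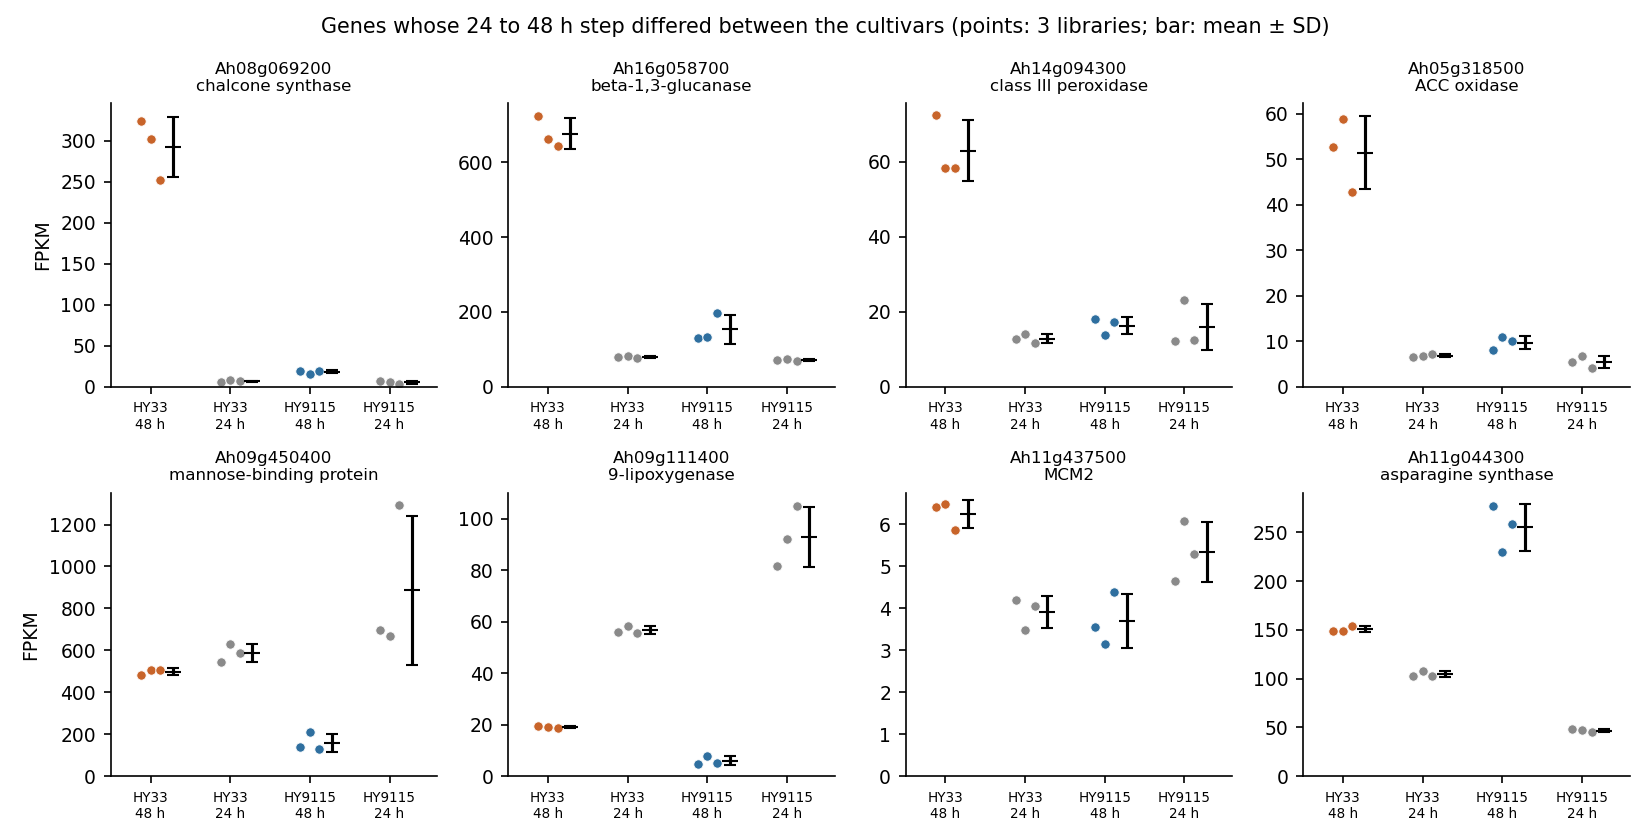
FPKM of 8 genes whose step differed between the cultivars, in the 3 libraries each of HY33 at 48 h (orange), HY33 at 24 h (grey), HY9115 at 48 h (blue) and HY9115 at 24 h (grey), with mean ± SD; axes start at 0. Ah08g069200, of the chalcone synthase list, reached 252 to 324 FPKM in HY33 at 48 h and 16.1 to 19.9 FPKM in HY9115 at 48 h.

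Among the genes that rose in HY33, some phenolic and defence genes rose further than in HY9115. Ah08g069200, the member of the chalcone synthase list with the 52.4-fold increase, had 19.9, 16.1 and 18.7 FPKM at 48 h, against 7.33, 5.71 and 3.18 FPKM at 24 h in HY9115 (difference 3.78, SE 0.33, adjusted p 3.4e-10). Ah17g434000 had 4.1, 3.04 and 2.62 FPKM at 48 h, against 1.84, 0.79 and 1.47 FPKM at 24 h in HY9115 (difference 4.31, SE 0.45, adjusted p 2.9e-08). At 24 h the cultivars were thus close in both genes, and at 48 h HY33 was far above. The glucanase Ah16g058700 had 129.6, 133 and 197 FPKM at 48 h, against 71.3, 75 and 70.1 FPKM at 24 h in HY9115 (difference 2.07, SE 0.18, adjusted p 4.2e-10). A second glucanase, Ah06g103100, had 92.8, 77.7 and 79.1 FPKM at 48 h, against 12, 14.6 and 14.4 FPKM at 24 h in HY33. In HY9115 its levels were 29.4, 26.1 and 39.8 FPKM at 48 h, against 20.8, 17.6 and 16.1 FPKM at 24 h. In the glucanase list as a whole, 11 of 91 genes were higher in the difference and 4 lower.

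Class III peroxidases were higher in the difference in 15 of 98 genes and lower in 1 (10 to 16 higher and 1 to 3 lower over the other settings). Ah14g094300 had 72.5, 58.3 and 58.3 FPKM at 48 h, against 12.8, 14 and 11.6 FPKM at 24 h in HY33. In HY33 it averaged 54.2 FPKM in water, and its log2 change from water to 48 h was 0.59, under the minimum. Its levels in HY9115 were 18, 13.7 and 17.2 FPKM at 48 h, against 12.2, 23.1 and 12.6 FPKM at 24 h, where the groups overlapped. Ah14g347700 had 133, 123 and 115 FPKM, against 35.1, 36.1 and 36.2 FPKM in HY33, and 31.3, 31.2 and 50.8 FPKM, against 34.1, 35.7 and 24.1 FPKM in HY9115. One member went the other way. Ah06g163800 had 0.35, 0.77 and 0.73 FPKM at 48 h, against 1.66, 1.32 and 0.8 FPKM at 24 h in HY33, but 8.69, 6.76 and 7.4 FPKM, against 1.22, 1.47 and 1.47 FPKM in HY9115 (difference -3.43, SE 0.32, adjusted p 5.8e-10).

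Both ACC oxidases that rose most in HY33 belong to the genes that differed. In HY9115, Ah05g318500 had 8.11, 10.9 and 10.1 FPKM at 48 h, against 5.45, 6.78 and 4.13 FPKM at 24 h (difference 2.15, SE 0.28, adjusted p 7.6e-07). There Ah15g475300 had 8.13, 9.11 and 6.47 FPKM at 48 h, against 5.47, 6.86 and 4.16 FPKM at 24 h. Fermentation genes were higher in the difference in 7 of 28. None of the 28 rose in HY9115 and 1 fell. The alcohol dehydrogenase Ah08g063400 had 219, 234 and 189 FPKM at 48 h, against 77.8, 72.4 and 70 FPKM at 24 h in HY33. In HY9115 it had 83, 98.5 and 81.4 FPKM, against 67.5, 76 and 61.8 FPKM (difference 1.25, SE 0.18, adjusted p 2.4e-06). Ah17g425400 had 178, 215 and 186 FPKM, against 166, 182 and 151 FPKM in HY9115, where its groups overlapped. The zinc transporter Ah16g414100 of the ZIP family had 24.7, 22.2 and 28.2 FPKM at 48 h, against 7.71, 9.27 and 7.82 FPKM at 24 h in HY33, and 15.3, 13.7 and 13.7 FPKM, against 19.5, 14.5 and 17.1 FPKM in HY9115.

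In other genes the called change was in HY9115. A neighbouring pair on chromosome 9 annotated with mannose binding, as lectins are, was not called in HY33. There the 3 libraries at 48 h lay below the 3 at 24 h in FPKM for both genes, and the fitted changes under TMM were near 0. Ah09g450400 had 482, 508 and 506 FPKM at 48 h, against 544, 631 and 587 FPKM at 24 h in HY33 (log2 change 0.02, SE 0.17). In HY9115 it had 138, 209 and 127 FPKM at 48 h, against 697, 666 and 1293 FPKM at 24 h. In water its means already differed, at 89.6 FPKM in HY33 and 1215 FPKM in HY9115. Ah09g450100 had 368, 408 and 403 FPKM, against 449, 463 and 491 FPKM in HY33, and 128, 135 and 108 FPKM, against 606, 594 and 1545 FPKM in HY9115. One HY9115 library at 24 h was far above the others in both genes. The histidine phosphotransfer gene Ah09g038000, of cytokinin signalling, had 124, 97.4 and 112 FPKM at 48 h, against 43.5, 51 and 51.6 FPKM at 24 h in HY33, and 0.46, 0.71 and 0.19 FPKM, against 6.82, 6.45 and 6.43 FPKM in HY9115. Its difference of 5.05 (SE 0.44, adjusted p 4.8e-13) thus joins a rise from 24 to 48 h in HY33 and a fall in HY9115. In water the cultivars were already apart, at means of 138 FPKM in HY33 and 1.32 FPKM in HY9115. The HY33 mean of 111 FPKM at 48 h was near its water level (log2 change from water 0.06, SE 0.12).

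Of 11 asparagine synthases, 2 were higher in the difference and 2 lower. Ah01g056100, higher in it, had 10.2, 10.1 and 9.99 FPKM at 48 h, against 122, 132 and 134 FPKM at 24 h in HY9115 (difference 1.84, SE 0.13, adjusted p 1.9e-12). Both lower members rose in HY9115. Ah01g053200 had 416, 365 and 387 FPKM at 48 h, against 78.5, 79.7 and 71.5 FPKM at 24 h in HY9115 (difference -1.40, SE 0.10, adjusted p 3.2e-12). Ah11g044300 had 149, 149 and 154 FPKM, against 103, 108 and 103 FPKM in HY33, and 277, 229.6 and 259 FPKM, against 48.1, 47 and 44.9 FPKM in HY9115. The glutathione S-transferase Ah01g069800 had 139, 149.6 and 162 FPKM at 48 h, against 170.2, 186 and 182 FPKM at 24 h in HY33 (log2 change -0.01, SE 0.11), and 304, 336 and 378 FPKM, against 111, 138 and 110.2 FPKM in HY9115. The ascorbate peroxidase Ah07g216100, which removes hydrogen peroxide, had 1.24, 1.11 and 2.29 FPKM, against 6.93, 5.43 and 7.51 FPKM in HY33. In HY9115 it had 4.05, 3.82 and 3.68 FPKM at 48 h, against 0.92, 1.67 and 3.13 FPKM at 24 h, so the cultivars moved in opposite directions. The transketolase Ah05g136700, an enzyme of the pentose phosphate and Calvin cycles, had 1.43, 0.95 and 1.45 FPKM, against 7.51, 5.55 and 6.13 FPKM in HY33, and 5.49, 5.83 and 5.41 FPKM, against 2.4, 2.24 and 2.25 FPKM in HY9115.

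A few genes were nearly absent in HY33 at 24 h or at 48 h, but not at both. Ah13g313200, annotated with copper transport, had 3.9, 4.24 and 3.97 FPKM at 48 h, against 0, 0.1 and 0.17 FPKM at 24 h in HY33. It averaged 3.1, 5.5 and 4.09 FPKM in HY33 at 0, 3 and 12 h, and 8.34 FPKM at 48 h against 13 FPKM at 24 h in HY9115. Ah15g517900, a dehydrogenase of lignan synthesis, had 5.84, 4.49 and 5.29 FPKM at 48 h, against 0.05, 0.05 and 0 FPKM at 24 h, from 282 counts in all against 2. It averaged 0.593, 0.543 and 0.633 FPKM in HY33 at 0, 3 and 12 h, so it was low at every time before 48 h. Nearly absent at 48 h instead was Ah13g377300, with 0.2, 0.39 and 0.68 FPKM, against 13, 10.7 and 12.6 FPKM at 24 h. Ah10g149900, annotated as a porin, had 1.01, 0 and 0.81 FPKM at 48 h, against 11.7, 11.3 and 10.9 FPKM at 24 h, and was at 0 in all HY9115 libraries of both times. The kinase Ah05g074900 had 0.3, 0.45 and 0.26 FPKM, against 7.08, 6.86 and 5.91 FPKM, and at most 0.08 FPKM in those of HY9115. For these the 3 libraries of a time were alike, and the times stood apart.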

How the data were processed

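Counts per gene were deposited for 30 libraries. The submitters' processing notes name HTSeq 0.6.1, HISAT2 2.2.1, DESeq2 and cutadapt 1.9.1, with no order; the sources used here give neither the genome build nor the strand setting of the deposited counts. The deposited FPKM equal counts divided by exon length and library total (100.0% of values within 0.005). Testing was limited to genes that reached 1 FPKM in 3 or more libraries, which held 99.49% or more of each library's counts. The test was edgeR 4.0.16 quasi-likelihood (R 4.3.3) with TMM and 1 coefficient per group over all 30 libraries; the script was tested on simulated data. Levels are given as FPKM and changes as fitted log2 values. Gene roles come from the KEGG orthology and GO terms of the deposited table, which cover 27351 of the 42311 tested genes. The gene IDs matched 0 entries of the RefSeq gene table, so no sequences are shown. Without a stated strand, overlapping and antisense genes cannot be told apart.

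Named genes were taken from those called in a contrast, annotated, at a mean of at least 5 FPKM in the higher group, without overlap between the 2 HY33 groups and outside the chromosome stretches. Of these, the 8 with the largest log2 change, the 6 with the largest FPKM difference and up to 3 per list were eligible in each direction, and a part of them is named. The comparison, the gene lists and the members were chosen with earlier results of these data known. Alternatives were DESeq2 1.42.0, limma 3.58.1 on log2(FPKM + 1), other scalings, filters, thresholds and sets of libraries, and a replicate block.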

Additional observations from a re-analysis of the deposited data

Results flagged for a closer look

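The change from 24 to 48 h differed between the cultivars, by the test of the difference itself, in 3024 genes, and the values here are HY33 minus HY9115 differences of log2 changes. Among phenolic and defence genes they were 3.78 for Ah08g069200 and 4.31 for Ah17g434000, both of the chalcone synthase list. The glucanases Ah16g058700 and Ah06g103100 had 2.07 and 1.87, and the peroxidases Ah14g094300 and Ah14g347700 had 2.33 and 1.59. The ACC oxidases Ah05g318500 and Ah15g475300 had 2.15 and 1.83, and the alcohol dehydrogenases Ah08g063400 and Ah17g425400 had 1.25 and 1.09. The zinc transporter Ah16g414100 had 1.91, the histidine phosphotransfer gene Ah09g038000 5.05, and the mannose-binding genes Ah09g450100 and Ah09g450400 2.69 and 2.3. The 9-lipoxygenase Ah09g111400 had 2.45, the pectate lyase Ah01g025500 2.14 and the MCM2 gene Ah11g437500 1.28. The copper transport gene Ah13g313200 had 6.1, a value that rests on 5 counts in HY33 at 24 h.

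Lower in the difference were the asparagine synthases Ah01g053200 with -1.4 and Ah11g044300 with -1.87, and the glutathione S-transferase Ah01g069800 with -1.71. The ascorbate peroxidase Ah07g216100 had -3.08, the peroxidase Ah06g163800 -3.43 and the transketolase Ah05g136700 -3.54.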

How the results depend on the processing

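The 5427 calls of HY33, 7707 of HY9115 and 3024 of the difference between the steps stayed within 1.5 times under DESeq2, other scalings, no filter, a fit of only the groups compared, removal of the stretch genes and an adjusted p under 0.01. They were 3312, 4598 and 1947 with a filter of 5 FPKM, which leaves fewer genes to test, and 19532, 21846 and 8346 without the minimum change, which calls smaller changes. With limma on log2(FPKM + 1), which compresses the change of scarce genes, they were 2686, 3950 and 1442. Leaving out 1 replicate in turn gave 5147 to 5549, 7242 to 7720 and 2790 to 3019. The replicate numbers did not pair the libraries: deviations of same-numbered HY33 libraries at 48 and 24 h correlated at -0.039, -0.035 and 0.026, and those of HY9115 at 0.071, 0.028 and -0.062. With the replicate block, 5385, 7665 and 2944 genes were called. Of 1642 recomputed values of named genes, 1626 kept direction and side of the threshold, 16 (of 7 genes) kept direction only, and 0 reversed. Alternatives for list counts of the difference between the steps were chosen after seeing the data. Without HY33 48 h replicate 1, 6 instead of 10 nitrate and peptide transporters were lower. Fitted changes of genes near 0 FPKM rest on few counts.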
